A study of Homo sapiens with 4 samples.

Results

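The 57 genes described here form the core of the cell division cycle. Each was listed by name, with earlier results of these data known. They comprise 24 S phase genes, 26 G2/M genes and 7 G1 regulators among the 31033 gene names on the array. Each was read from the non-control probes that carry its name, and where a gene had several probes the brightest over the 4 arrays gave its value. All 57 leading probes passed the filter on low signal, being well above background on every array, and all were tested. RNA from clones of HCT116, an established line from a colorectal carcinoma, was hybridized to 4 single color arrays. The vector control clone (vec) and the clone with plakophilin3 (PKP3) knocked down (shpkp3-2) had 2 arrays each. The vec cells were the vector control, and the shpkp3-2 cells carried a stably transfected plasmid that encodes an shRNA to PKP3, a desmosomal plaque protein. Both clones were kept under selection, which the labels give as 5 μg/ml puromycin and the study's methods as 5 μg/ml blasticidin. Each group was 1 clone, so that the effect of the knockdown and a difference between clones cannot be told apart. The cells were not synchronised or sorted, as far as the labels and methods say, and a smaller share of cells in a phase and less RNA per cell in that phase cannot be told apart. The first array of each clone held RNA of a first collection and the second array held RNA of a second collection. All 4 arrays lay on 1 slide.

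A dividing cell copies its DNA in S phase and separates the copies in mitosis (M), with the gap phases G1 and G2 between. In G1 the retinoblastoma protein holds E2F transcription factors in check until cyclin dependent kinases phosphorylate it, and E2F then switches on the genes for DNA replication. The genes for mitosis are held down in G1 by the DREAM complex and switched on later by MuvB with B-MYB and FOXM1, mostly through a CHR element, while nearby CCAAT boxes bind the activator NF-Y. Transcripts of these genes therefore rise and fall with the share of cells in each phase, and with the rate of proliferation in epithelial tumor cells.

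RefSeq promoter windows (GRCh38.p14) of 300 bases, 250 of them before the start of the gene, were at hand for 47 of the 57 members by symbol. The entries absent from the table were those of AURKA, BIRC5, CCNE2, CDK2, FOXM1, MCM4, MCM5, TPX2, TTK and UBE2C. The windows were searched on both strands for 4 E2F words (TTTCCCGC, TTTCGCGC, TTTGCCGC and TTTGGCGC), for the CHR word TTTGAA and for the CCAAT box, and a gene was counted if any of its windows held the word. An E2F word was found in 15 of 21 S phase genes (71.4%), in 2 of 20 G2/M genes (10.0%) and in 0 of 6 G1 regulators, against 3.99% of the 27305 genes of the table. The CHR word was found in 13 of 20 G2/M genes (65.0%), in 1 of 21 S phase genes (4.76%) and in 0 of 6 G1 regulators, against 18.2% of all genes. The CCAAT box was found in 18 of 20 G2/M genes (90.0%), in 15 of 21 S phase genes (71.4%) and in 1 of 6 G1 regulators (16.7%), against 39.7% of all genes. Among the further genes of the cycle, described at the end, an E2F word was found in 13 of 37 S phase genes (35.1%) and the CHR word in 31 of 46 G2/M genes (67.4%). These matches describe letters only, and say nothing of which factor was bound in these cells.

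The 120 bases before the start are printed for 3 genes of each kind, since they carry the words that set the lists apart. They are the 3 G2/M genes with the lowest log2 difference among those with a CHR word there, and the 3 S phase genes with the highest among those with an E2F word there. Where a gene has several windows, the window with most of these words is given. Capitals mark the words, on either strand, and each line reads 5′ to 3′ along the gene. MKI67 lies at chr10:128126424-128126543 (minus strand) with 2 CHR words and 2 CCAAT boxes, of which a CHR word and a CCAAT box overlap. CENPA lies at chr2:26785936-26786055 (plus strand) with 1 CHR word, and KIF11 at chr10:92593010-92593129 (plus strand) with 1 CHR word and 1 CCAAT box. E2F1 lies at chr20:33686386-33686505 (minus strand) with 2 E2F words and 2 CCAAT boxes, CDT1 at chr16:88803669-88803788 (plus strand) with 1 E2F word, and E2F2 at chr1:23531234-23531353 (minus strand) with 1 E2F word.
MKI67: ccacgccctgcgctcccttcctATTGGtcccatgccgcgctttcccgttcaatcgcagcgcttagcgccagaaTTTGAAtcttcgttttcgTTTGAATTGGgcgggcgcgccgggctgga
CENPA: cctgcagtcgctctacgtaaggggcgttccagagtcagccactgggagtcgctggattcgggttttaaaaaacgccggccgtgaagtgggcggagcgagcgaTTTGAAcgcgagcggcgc
KIF11: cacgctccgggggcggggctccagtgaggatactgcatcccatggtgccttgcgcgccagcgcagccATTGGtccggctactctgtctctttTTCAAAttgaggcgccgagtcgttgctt
E2F1: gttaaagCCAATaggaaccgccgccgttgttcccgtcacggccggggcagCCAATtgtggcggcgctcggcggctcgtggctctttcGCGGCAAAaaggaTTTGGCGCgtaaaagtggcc
CDT1: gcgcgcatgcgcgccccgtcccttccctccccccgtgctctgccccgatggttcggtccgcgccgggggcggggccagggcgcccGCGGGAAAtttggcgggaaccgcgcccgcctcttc
E2F2: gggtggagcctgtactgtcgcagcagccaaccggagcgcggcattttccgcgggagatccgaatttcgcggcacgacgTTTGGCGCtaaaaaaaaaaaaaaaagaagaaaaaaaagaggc

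The signal at the 75th percentile was 499 on vec 1 and 374 to 381 on the other arrays. The summed signal over the spots that are not controls ran from 1.16e+08 to 1.30e+08, the share of spots well above background from 60.5% to 63.5%, and 0 spots were saturated. PKP3, the targeted gene, was 17.2% of vec in shpkp3-2, with a log2 difference of -2.54 ± 0.23 (SE, limma, adjusted p = 0.0188, n = 2 arrays per clone), and was lower in both collections. Of 9 colon epithelium markers, 7 stood well above background on every array, VIL1 on 1 and CDX1 on none. Their signals, scaled to the 75th percentile, summed to 1101 and 1251 in vec against 1403 and 1429 in shpkp3-2. Of the markers of other cells, 2 of 6 did so for keratinocytes (KRT10 and KRT14), 1 of 5 for fibroblasts (COL1A1) and 1 of 3 for endothelium (VWF). Summed over all markers of a list, detected or not, the scaled signals were 64.4 to 78.9, 0.306 to 0.400 and 0.162 to 0.247. Of the leukocyte markers, CD3E (-4.40 to -3.92) and CD14 (-4.40 to -3.75) were above background on every array, as log2 signals relative to the 75th percentile. On no array were 3 of 6 keratinocyte markers (KRT5 among them), 4 of 5 for fibroblasts and 2 of 3 for endothelium (PECAM1 among them). PTPRC, a leukocyte marker, was also on none.

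All values below are log2 signals after the 75th percentile of the array was subtracted, so that 0 is a signal at that percentile, and a difference is shpkp3-2 minus vec. Signals of different probes are not compared, since probes differ in brightness. None of the 57 members passed the limma test after adjustment over all probes tested, with adjusted p between 0.240 and 0.985, while 0.43% of the 20244 gene names tested did. At an unadjusted limma p under 0.05, 4 members were lower in shpkp3-2 and 0 higher, against 4.52% and 7.63% of all gene names. With 2 arrays against 2 the smallest two-sided exact permutation p is 0.333. A second description was therefore used beside the fit, namely whether both arrays of a clone lay on the same side of both arrays of the other. The shpkp3-2 pair lay wholly below the vec pair for 22 members and wholly above it for 1, against 17.2% and 28.4% of all gene names. The 22 were unevenly spread over the phases, with 17 of 26 G2/M genes, 2 of 24 S phase genes and 3 of 7 G1 regulators.

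The median log2 difference was -0.26 for the G2/M genes (83.3% of vec), -0.03 for the S phase genes (97.9% of vec) and -0.21 for the G1 regulators (86.2% of vec), while it was 0.06 over all gene names. The S phase median therefore lay 0.23 above that of the G2/M genes, as a description with no test. The SE of a single member had a median of 0.22 and ran from 0.17 to 0.49, and the difference was smaller than its SE in 32 of the 57.

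**Figure D1:**
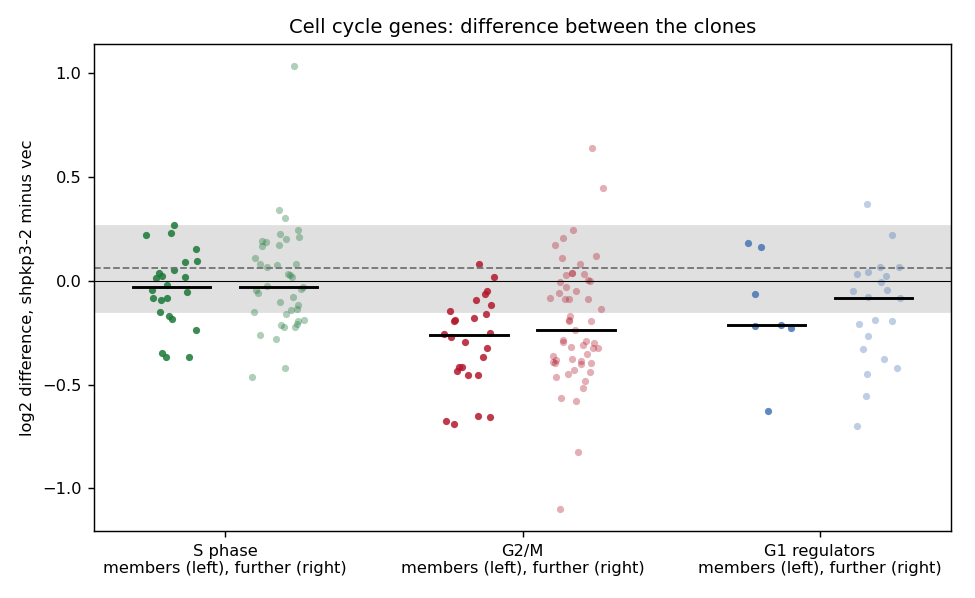
Log2 difference between shpkp3-2 and vec (vertical axis) for each S phase, G2/M and G1 gene, with the 57 members at left of each pair and the 118 further genes tested at right in paler color. Short black lines are medians, the dashed line is the median over all gene names (0.06), the grey band is their interquartile range from -0.15 to 0.27, and the G2/M medians (-0.26 and -0.24) lie below that band.

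Among the G2/M genes, those of chromosomes and centromeres were the lowest as a group. All 5 of them lay lower on both shpkp3-2 arrays than on both vec arrays, against 17.2% of all gene names. Their median difference was -0.37, with a range from -0.69 to -0.16. MKI67, a proliferation marker that coats mitotic chromosomes, read -1.19 and -1.33 in the vector control and -1.88 and -2.02 in the knockdown clone. The arrays did not overlap, and the difference of -0.69 ± 0.18 (SE, limma, unadjusted p = 0.00862, adjusted p = 0.240) was the lowest of the 57. With normexp background correction MKI67 was at -0.46, and CDK6 (-0.65), CENPA (-0.64) and KIF11 (-0.60) lay lower. CENPA, the histone H3 variant that marks the centromere, read 1.04 and 0.76 in vec, compared with 0.46 and -0.0039 in shpkp3-2. Its arrays did not overlap either, and shpkp3-2 was at 62.7% of vec (log2 difference -0.67 ± 0.23, SE, limma, unadjusted p = 0.0275, adjusted p = 0.343). The CENPA difference was -0.44 without shpkp3-2 2. The others were TOP2A, the topoisomerase that untangles sister chromatids (-0.37), CENPF (-0.27) and CENPE (-0.16), the latter 2 being kinetochore proteins, and none of these 3 had an unadjusted limma p under 0.05.

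The 11 genes of the spindle and its checkpoint lay below 0 throughout, with a median of -0.29, while 8434 of 20244 gene names lay below 0. Of the 11, 7 were lower without overlap between the clones, against 17.2% of all gene names. KIF11, the kinesin that pushes the spindle poles apart, read 0.79 and 0.43 in vec against 0.11 and -0.19 in shpkp3-2. The difference on this leading probe was -0.65 ± 0.22 (SE, limma, unadjusted p = 0.0236, adjusted p = 0.327), with no overlap. A second KIF11 probe gave -0.09 only, with overlapping arrays, so that the size of the KIF11 difference rests on the probe. KIF20A, a kinesin of the central spindle, read 2.17 and 1.46 in the vector control and 1.12 and 1.21 in the knockdown clone. Its difference of -0.65 had an unadjusted limma p of 0.0518, and was -1.05 in the first collection and -0.25 in the second. The checkpoint kinase BUB1B and the spindle assembly factor TPX2 had differences of -0.46 and -0.42 without overlap. AURKA (-0.29), BUB1 (-0.26) and KIF23 (-0.19) also lay lower without overlap. For BUB1 the gap to vec 2 was small, with a difference of -0.48 in the first collection and -0.03 in the second. AURKB (-0.18), MAD2L1 (-0.12) and TTK (-0.32) overlapped, the last because vec 2 (0.27) lay far below vec 1 (1.16). BIRC5, the chromosomal passenger also known as the apoptosis inhibitor survivin, was the highest of the 11, at 6.34 and 6.81 in vec, compared with 6.55 and 6.50 in shpkp3-2. Both its shpkp3-2 arrays lay between the vec arrays, and the difference was -0.05 ± 0.22 (SE, limma, adjusted p = 0.948).

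The 10 genes of mitotic entry and exit lay closer to 0 as a group, with a median of -0.17. Lower without overlap were 5 of 10, against 17.2% of all gene names. These 5 were cyclin A2 (CCNA2, -0.44), the phosphatase CDC25C (-0.46), the kinase PLK1 (-0.25) and the mitotic cyclins CCNB1 (-0.19) and CCNB2 (-0.09). The CDC25C difference was -0.77 in the first collection and -0.14 in the second. A second PLK1 probe gave -0.51 (limma, unadjusted p = 0.0281, adjusted p = 0.344), lower than the leading probe. The highest members of the group were the ubiquitin conjugating enzyme UBE2C and CDC20, which together with the anaphase promoting complex end mitosis. UBE2C read 5.06 and 5.48 in vec against 5.48 and 5.23 in shpkp3-2, a difference of 0.08 ± 0.22 (SE, limma, adjusted p = 0.905). CDC20 read 3.26 and 3.86 in the vector control and 3.61 and 3.56 in the knockdown clone, a difference of 0.02 ± 0.24 (SE, limma, adjusted p = 0.982). Both overlapped between the clones, and both turned slightly negative under quantile normalization (-0.015 and -0.058). FOXM1, the transcription factor of this program, had a difference of -0.42, but its arrays overlapped, since 1.57 in the first shpkp3-2 array lay above 1.53 in the first vec array.

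**Figure D2:**
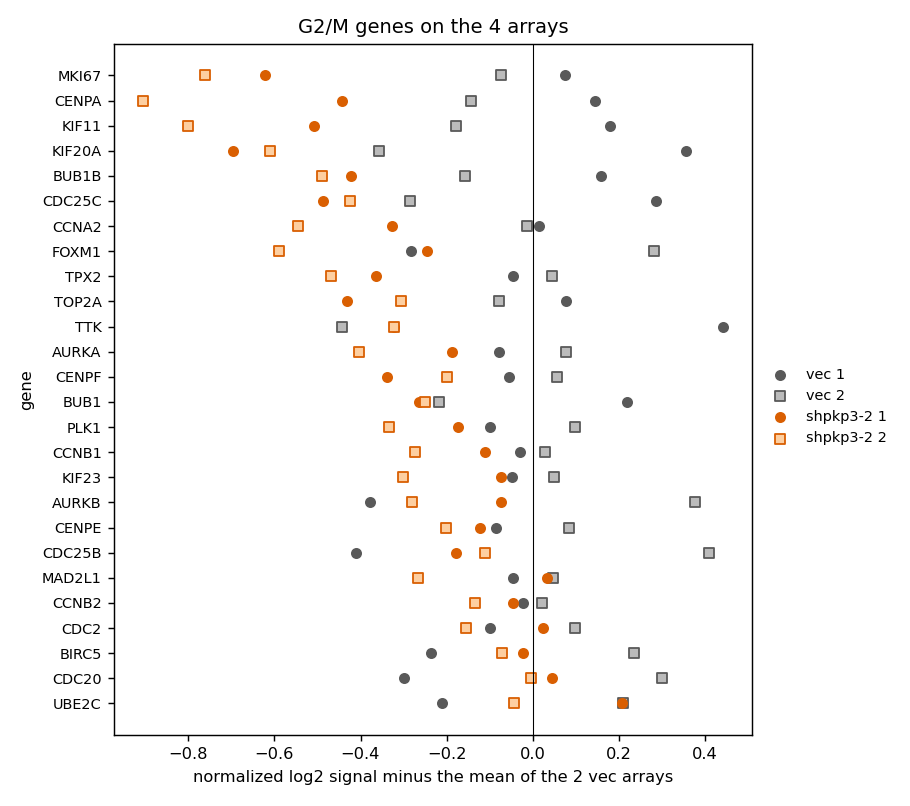
Normalized log2 signal of the 26 G2/M genes on each array, minus the mean of the 2 vec arrays (horizontal axis), with genes ordered by their difference. Grey symbols are vec 1 (circle) and vec 2 (square), and orange symbols are shpkp3-2 1 (circle) and shpkp3-2 2 (square). In 17 of the 26 genes both orange symbols lie left of both grey ones.

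Leaving out any single array left the G2/M median negative, between -0.30 and -0.19, and 17 to 25 of the 26 genes still had every remaining shpkp3-2 array below every remaining vec array. Such separation is easier with 3 arrays, and 26.1% to 34.3% of all gene names then showed it. The 4 members with an unadjusted limma p under 0.05 became 7 without vec 1, 10 without vec 2, 3 without shpkp3-2 1 and 0 without shpkp3-2 2. Of the G2/M genes, the 13 with a CHR word in the promoter window had a median difference of -0.27 and the 7 without it had -0.19, with ranges of -0.69 to 0.02 and -0.65 to -0.14. The ranges overlapped almost wholly, and no test was made.

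The S phase genes had a median difference near 0 between the clones, but they varied widely between arrays of the same clone. The medians were -0.02 for the 9 genes of the MCM helicase and its loading, -0.08 for the 7 genes of the replication fork, -0.05 for the 3 genes of nucleotide supply and 0.09 for the 5 genes of the G1/S switch. The MCM2 to MCM7 subunits of the helicase ranged from -0.24 (MCM3) to 0.15 (MCM5), and all 6 overlapped. PCNA, the sliding clamp, had a difference of -0.08 and thymidylate synthase (TYMS) one of -0.05. The lowest S phase gene was MCM10, a replication initiation factor, at 1.68 and 1.92 in vec, compared with 1.67 and 1.19 in shpkp3-2 (difference -0.37 ± 0.23, SE, limma, adjusted p = 0.563). The vec and shpkp3-2 arrays were separated by only a small gap, and a second MCM10 probe gave -0.09 with overlap. GINS1, a subunit of the replicative helicase, read -2.99 and -2.36 in vec against -2.97 and -3.11 in shpkp3-2, and its difference of -0.37 ± 0.25 (SE, limma, adjusted p = 0.595) came with overlap and was -0.049 without vec 2. RRM2, the small subunit of ribonucleotide reductase, read 2.84 and 2.50 in the vector control and 2.37 and 2.27 in the knockdown clone. It did not overlap, its difference was -0.35 ± 0.20 (SE, limma, adjusted p = 0.535), and a second probe gave -0.57, also without overlap. MCM10 and RRM2 were the 2 S phase genes whose leading probes did not overlap. The MCM10 difference was -0.13 without shpkp3-2 2, and the RRM2 difference was -0.18 without vec 1.

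By leading probe, the highest S phase genes were the licensing factors CDC6 and CDT1, which load the MCM helicase on DNA, and E2F1. CDC6 read 3.64 and 4.09 in vec, compared with 4.29 and 3.97 in shpkp3-2 (difference 0.27 ± 0.23, SE, limma, adjusted p = 0.667). E2F1 read 1.69 and 2.39 in vec against 2.46 and 2.07 in shpkp3-2 (difference 0.23 ± 0.29, SE, limma, adjusted p = 0.772). CDT1 read 5.47 and 5.98 in the vector control and 6.01 and 5.88 in the knockdown clone (difference 0.22 ± 0.23, SE, limma, adjusted p = 0.721). In all 3 the first vec array was the lowest of the 4 and the clones overlapped. Without vec 1 the differences of CDC6, E2F1 and CDT1 were 0.045, -0.12 and -0.034. A second and dimmer E2F2 probe gave 0.41, with both shpkp3-2 arrays above both vec arrays. The leading E2F2 probe gave 0.10 with overlap.

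For 3 S phase genes the probes differed in direction. CDC25A, the phosphatase that activates CDK2, had the widest spread of all members, at 0.99 and 2.35 in vec, compared with 1.94 and 1.10 in shpkp3-2 (difference -0.15 ± 0.49, SE, limma, adjusted p = 0.923), and a second probe gave 0.22. FEN1, the flap endonuclease of the lagging strand, read 1.74 and 2.74 in vec against 2.39 and 2.01 in shpkp3-2, a difference of -0.04 against 0.08 on its second probe. The leading POLE probe, for the leading strand polymerase, read -3.29 and -2.96 in the vector control and -3.24 and -3.35 in the knockdown clone, a difference of -0.17 that was -0.0042 without vec 2. A second POLE probe, matched to another transcript accession, gave 0.40, with both shpkp3-2 arrays above both vec arrays. Another POLE probe was below background on all arrays. Both FEN1 probes and both CDC25A probes had vec 1 lowest and shpkp3-2 2 next. The highest was vec 2 on both FEN1 probes, and vec 2 on the leading and shpkp3-2 1 on the second CDC25A probe.

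**Figure D3:**
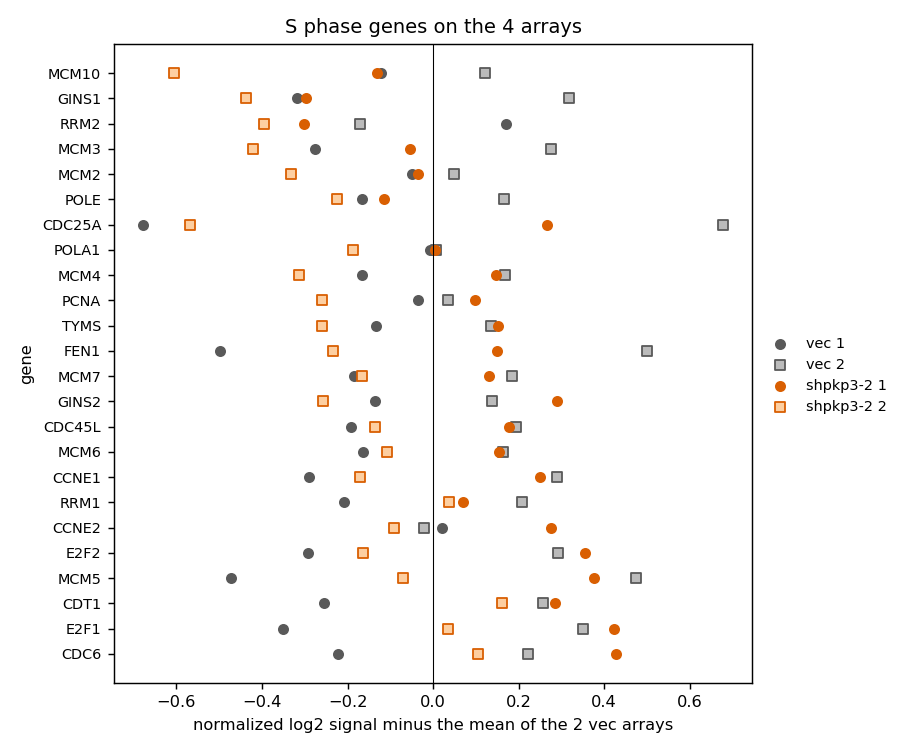
Normalized log2 signal of the 24 S phase genes on each array, minus the mean of the 2 vec arrays (horizontal axis), with genes ordered by their difference. Grey symbols are vec 1 (circle) and vec 2 (square), and orange symbols are shpkp3-2 1 (circle) and shpkp3-2 2 (square). The square of vec 2 lies right of the circle of vec 1 in 22 of 24 genes, and the circle of shpkp3-2 1 lies right of the square of shpkp3-2 2 in 24 of 24.

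The order of arrays was shared by nearly all S phase genes. The signal was higher on vec 2 than on vec 1 for 22 of 24, by a median of 0.38, and higher on shpkp3-2 1 than on shpkp3-2 2 for 24 of 24, by a median of 0.36. Both held in 22 S phase genes (91.7%), in 14 of 26 G2/M genes (53.8%) and in 1 of 7 G1 regulators (14.3%), against 34.7% of all gene names. Without regard to sign, the median difference within a clone was 0.38 between the vec arrays and 0.36 between the shpkp3-2 arrays for the S phase genes. It was 0.24 and 0.14 for the G2/M genes, and 0.28 and 0.16 for all gene names. Thus vec 2 and shpkp3-2 1 carried the higher S phase signals and vec 1 and shpkp3-2 2 the lower, across the clones. The S phase difference between clones was then set by which arrays were compared. Within the first RNA collection the median difference was 0.32, with 22 of 24 genes higher in shpkp3-2, and within the second it was -0.39, with 24 of 24 lower. For all gene names these medians were 0.11 and 0.02.

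The G2/M median was below 0 in both collections, with values of -0.10 (18 of 26 lower) and -0.31 (25 of 26 lower), and 17 genes were lower in both, while 4422 of 20244 gene names were. The gap between the phases was in the first collection only, where the S phase median lay 0.41 above the G2/M median. In the second collection it lay below by a log2 difference of -0.08. The base composition of the probes moved with the difference between the vec arrays, with a Pearson correlation of 0.27 over the leading probes of all gene names between the GC content of the probe and vec 2 minus vec 1. It was -0.09 for shpkp3-2 1 minus shpkp3-2 2 and 0.03 for the difference between clones. The median GC content was 44.2% for the S phase probes, 40.8% for the G2/M probes and 45.0% for all. The first vec array also had the highest 75th percentile, as given above. The part of either in the S phase pattern was not tested.

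**Figure D4:**
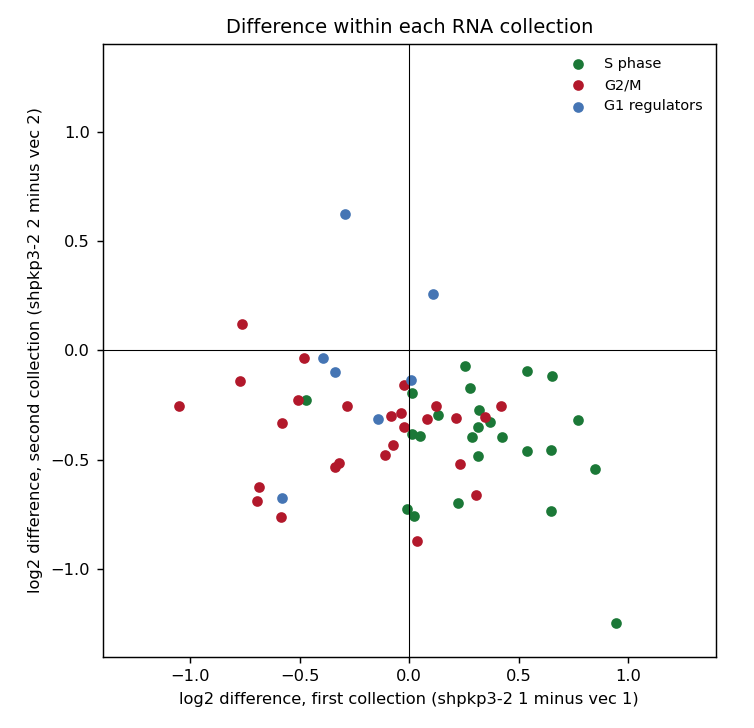
Log2 difference between shpkp3-2 and vec within the first RNA collection (horizontal axis) and within the second (vertical axis) for the 57 members, colored by class. The S phase genes lie mostly at lower right (22 of 24, up in the first and down in the second), and 17 of 26 G2/M genes lie at lower left.

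Leaving out 1 array moved the S phase genes in either direction. Their median was -0.19 without vec 1 and -0.21 without shpkp3-2 1, and it was 0.16 without vec 2 and 0.15 without shpkp3-2 2. The number of S phase genes with all shpkp3-2 arrays below all vec arrays was 2 with 4 arrays, 16 (66.7%) without vec 1 and 12 of 24 without shpkp3-2 1, against 34.3% and 26.1% of all gene names for the latter 2. The number above was 0 with 4 arrays, 12 of 24 without vec 2 and 8 (33.3%) without shpkp3-2 2. These were no higher than the shares over all gene names, which were 50.8% and 41.5%. Of the S phase genes, the 15 with an E2F word in the promoter window differed between the vec arrays by a median of 0.37 and between the shpkp3-2 arrays by 0.32. The 6 without it differed by 0.40 and 0.35.

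Among the G1 regulators, CDK6 was the lowest. CDK6, a kinase that with D cyclins phosphorylates the retinoblastoma protein, read 2.39 and 2.53 in vec, compared with 1.81 and 1.85 in shpkp3-2. The arrays did not overlap, the spread within each clone was small, and shpkp3-2 was at 64.7% of vec (difference -0.63 ± 0.18, SE, limma, unadjusted p = 0.0118, adjusted p = 0.268). A second CDK6 probe gave -0.51 (limma, unadjusted p = 0.0406, adjusted p = 0.383), also without overlap, and the difference on the leading probe was -0.58 in the first collection and -0.68 in the second. CDK2, the partner of cyclins E and A, read -1.52 and -1.62 in vec against -1.86 and -1.71 in shpkp3-2 (difference -0.22 ± 0.18, SE, limma, adjusted p = 0.646), without overlap, and -0.14 without shpkp3-2 1. CDK4 had a like difference of -0.21, but its arrays overlapped. It read 4.58 and 4.07 in vec against 4.18 and 4.04 in shpkp3-2, so that vec 1 alone was high.

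The inhibitors of these kinases had differences of either sign. CDKN2A, which encodes an inhibitor of CDK4 and CDK6, read 4.10 and 4.08 in the vector control and 3.96 and 3.77 in the knockdown clone (difference -0.23 ± 0.18, SE, limma, adjusted p = 0.635) without overlap. It was -0.13 without shpkp3-2 2, and its second probe gave -0.02 with overlap. CDKN2B, its neighbour and relative, read -1.76 and -2.42 in vec, compared with -2.05 and -1.79 in shpkp3-2. The vec arrays enclosed both shpkp3-2 arrays, with a difference of 0.16 ± 0.27 (SE, limma, adjusted p = 0.830). CDKN1B, an inhibitor of cyclin E with CDK2, read 0.73 and 0.76 in vec against 0.84 and 1.02 in shpkp3-2 on its leading probe (difference 0.18 ± 0.18, SE, limma, adjusted p = 0.702), and the difference was 0.094 without shpkp3-2 2. It was the 1 member above vec without overlap, but its second probe gave -0.38, without overlap in the opposite direction, and no direction can be given. RB1, the retinoblastoma gene, read 3.52 and 3.66 in the vector control and 3.53 and 3.52 in the knockdown clone (difference -0.06 ± 0.17, SE, limma, adjusted p = 0.906). A second and dimmer RB1 probe gave -0.60 (limma, unadjusted p = 0.0271, adjusted p = 0.341) without overlap. Over all members, 15 had several tested probes, which had the same direction in 11 and differed in 4.

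Another 119 genes of the cycle, of which 118 were tested and CCND2 was not, were read in the same way. After adjustment 0 of the 118 were called by limma. At an unadjusted p under 0.05, 6 were lower and 0 higher, against 4.52% and 7.63% of all gene names, so that the lower share was near the background. The 55 further G2/M genes had a median of -0.24, with 26 lower and 1 higher without overlap (47.3% lower, against 17.2% of all gene names). The 41 further S phase genes had a median of -0.03 with 8 lower (19.5%, near the background) and 4 higher, and the 22 further G1 genes a median of -0.08 with 7 lower and 2 higher. The further S phase genes also had the order of arrays seen in the members, with both vec 2 above vec 1 and shpkp3-2 1 above shpkp3-2 2 in 34 of 41 (82.9%), and medians of 0.31 and -0.30 in the first and the second collection. The further G2/M genes had medians of -0.06 and -0.37, so that they were lower mainly in the second collection.

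Of the 6 genes with an unadjusted p under 0.05, 5 are mitotic, while 55 of the 118 tested are G2/M genes. As the 6 were near the background share, their make-up is a description only. KIF18A, a kinesin that aligns chromosomes at metaphase, read 1.47 and 0.53 in vec, compared with -0.09 and -0.12 in shpkp3-2. The difference of -1.10 ± 0.32 (SE, limma, adjusted p = 0.283) was the lowest of all, although the vec arrays were far apart. It passed the limma test when the RNA collection was a replicate block (adjusted p = 0.0261) and when vec 2 was left out (adjusted p = 0.0296). These fits also called more probes over the whole array, 841 and 602 against 119. With an array left out the difference ran from -1.57 without vec 2 to -0.63 without vec 1 (adjusted p = 0.214). KIF15, a kinesin that shares the work of KIF11, read 1.38 and 1.19 in vec against 0.60 and 0.33 in shpkp3-2, a difference of -0.83 ± 0.19 (SE, limma, adjusted p = 0.213). KIF2C, a microtubule depolymerase at centromeres, read 4.43 and 4.31 in the vector control and 3.88 and 3.82 in the knockdown clone, at 69.8% of vec (limma, adjusted p = 0.334). The arrays of KIF15 and KIF2C did not overlap between the clones.

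TROAP, a spindle associated protein, had a difference of -0.57 (limma, adjusted p = 0.337) on its leading probe, which turned to 0.08 when all its detected probes were averaged. PRC1, the crosslinker of the central spindle, had a difference of -0.46 (limma, adjusted p = 0.382), and is named as the remaining mitotic gene after its values were seen. The sixth gene was SKP2, of the ubiquitin ligase that removes CDKN1B protein, at 0.03 and -0.06 in vec, compared with -0.52 and -0.62 in shpkp3-2. Its difference of -0.56 ± 0.17 (SE, limma, adjusted p = 0.307) was nearly the same in the first and the second collection (-0.55 and -0.57). LIG1, the DNA ligase of replication, was the highest of the 118 at a difference of 1.03 and is named after its values were seen. It read 2.70 and 4.46 in vec against 4.73 and 4.49 in shpkp3-2, so that vec 1 alone was low, and it passed the limma test only when vec 2 was left out (adjusted p = 0.0246).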

How the data were processed

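The deposited tables came from Agilent Feature Extraction, and the authors' processed signal intensity of a spot in them is on a linear scale after background subtraction and detrending, with no scaling between arrays. The submitters' processing notes name version 9.1 and the file headers 10.7.3.1. The number of arrays limits the precision.

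Intensities were log2 transformed and set relative to the 75th percentile of the 51538 spots of their array. Outlier spots (26 to 39 per array) were left out and spots of a probe averaged. The 30512 probes well above background on both arrays of either clone were tested with limma 3.58.1 in R 4.3.3 (lmFit, eBayes, no covariates, Benjamini-Hochberg over all probes). Tables were made with pandas 2.3.3. The members and gene lists were chosen with earlier results of these data known. Named genes are those with an unadjusted p under 0.05, the 3 highest and 3 lowest of each list, those whose probes differ, and of the further genes those called or, with an unadjusted p under 0.05, at most 5 in each direction. Of the leading probes, 56 were matched to RefSeq by accession and UBE2C by symbol. CDC2 and CDC45L are now CDK1 and CDC45.

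The design text pairs arrays by RNA collection. The deviations of same-numbered arrays from their clone means correlated at -0.199 over the probes tested. The labels call the arrays of a clone biological replicates, and p-values measure the spread between them. Each clone occupied its own positions of the slide, so position and clone cannot be told apart. The fit was tested on simulated data. The alternatives were median centring, quantile normalization, normexp background correction (offset 50), no detection filter, detection on all arrays, the replicate block, each array left out, the mean of a gene's detected probes and a trended and robust prior. Of the cell type markers, 1 is not reported here.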

Additional observations from a re-analysis of the deposited data

Results flagged for a closer look

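The S phase genes lay on opposite sides of 0 within the RNA collections. The median log2 difference between shpkp3-2 and vec was 0.32 in the first collection and -0.39 in the second, with 22 of 24 genes higher in the first and 24 of 24 lower in the second. The difference between the collections was not tested, as each held 1 array per clone. The collections are numbered as in the design text, while the deviations of same-numbered arrays correlated at -0.199 over all probes tested. Whether the numbers of either clone are the other way round was not tested, and the values per collection rest on them. MCM5 had differences of 0.85 and -0.54 in the first and the second collection, and CDC25A 0.94 and -1.25.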

How the results depend on the processing

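No member passed the limma test after adjustment in the main comparison or in any of the 13 alternatives. The count at an unadjusted p under 0.05 (4 lower, 0 higher) was 9 lower with normexp and 8 with the trended prior, and ran from 0 to 10 lower and from 0 to 3 higher with an array left out. The G2/M median (-0.26) was -0.35 with quantile normalization and -0.30 to -0.19 with an array left out, and the G1 median (-0.21) was -0.14 with normexp and -0.24 to -0.13. The S phase median changed sign, from -0.21 to 0.16, and S phase minus G2/M ran from 0.10 to 0.37. The further G2/M median (-0.24) ran from -0.32 to -0.14. PKP3 (-2.54) ran from -2.80 to -2.28 over the alternatives, and without the filter on detection its adjusted p was 0.135.

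With the replicate block, that is with the RNA collections as pairs, members called stayed at 0 and further genes called became 1 (KIF18A). The block changed no other call among the members, the further genes and PKP3. Further genes called ran from 0 to 2 with an array left out. The further genes at an unadjusted p under 0.05 (6) were 21 with normexp, 13 with quantile normalization, 3 without the filter, 11 with averaged probes, 14 with the trended prior and 2 to 21 with an array left out. The counts of genes without overlap with an array left out were added after seeing the data. The crossed pairing (vec 1 with shpkp3-2 2), chosen after seeing the data, called 0 members and 0 further genes, with 12 further genes at an unadjusted p under 0.05.

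Of 26 genes followed through the 13 alternatives, 14 kept their direction in all. Quantile normalization turned CDC20 to -0.058 and UBE2C to -0.015. Normexp turned POLE to 0.016, and brought MKI67 to -0.46 and GINS1 to -0.10. Averaging the probes turned CDC25A to 0.036, CDKN1B to -0.10, FEN1 to 0.020, POLE to 0.11 and TROAP to 0.076, and brought KIF11 to -0.37 and RB1 to -0.33. With an array left out, the log2 difference changed sign within these ranges: BIRC5 from -0.28 to 0.19, CDC20 from -0.28 to 0.32, CDC25A from -0.83 to 0.53, CDKN2B from -0.17 to 0.49, CDT1 from -0.034 to 0.48, E2F1 from -0.12 to 0.58, FEN1 from -0.54 to 0.46, RB1 from -0.13 to 0.0047 and UBE2C from -0.13 to 0.29. The cause of these changes was not tested. The fit without an array takes the spread of the remaining lone array to equal that within the opposite clone.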
